A study of Mus musculus with 20 samples.

Results

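The 5 mouse genes Lin28a, Lin28b, Utf1, Mycn and Tdgf1 were chosen by name, out of 21951 protein-coding genes of the annotation, as genes that are active in pluripotent stem cells and become active late when fibroblasts are reprogrammed. For each gene, all peaks of trimethylated lysine 27 of histone H3 (H3K27me3) within 5 kb of a transcription start were collected from 10 peak lists. Peaks of the transcription factor KLF4 and positions of the enzyme JMJD3 were collected within the gene and 50 kb on each side. The question was which of the 5 genes kept and which lost a peak when the cells also received JMJD3.

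LIN28A and LIN28B are RNA-binding proteins that block the maturation of the let-7 family of microRNAs. UTF1 is a chromatin-associated protein of undifferentiated embryonic cells. MYCN is a transcription factor of the MYC family that drives growth and division. TDGF1, also called CRIPTO, is a membrane-anchored protein that acts as a co-receptor for the signalling protein NODAL. H3K27me3 is written by the Polycomb repressive complex PRC2 and marks silent developmental genes, and JMJD3, encoded by Kdm6b, is a demethylase that removes it. KLF4 binds GC-rich DNA with the core letters CACCC and is one of the 4 genes of the OSKM mix (Oct4, Sox2, Klf4, c-Myc) that turns fibroblasts into pluripotent cells.

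Chromatin immunoprecipitation followed by sequencing (ChIP-seq) was represented by peak lists of 14 of the 20 samples, with 1 library per group, and the other 6 samples were not analysed here. Mouse embryonic fibroblasts (MEFs) were wild-type (WT, strain C57BL/6J-OG2) or Jmjd3-/- knockout (KO, strain C57Bl6J), so genotype and strain cannot be told apart. H3K27me3 was measured in MEFs at day 0 without virus or added gene, and at day 5 (D5) and day 10 (D10) of OSKM reprogramming in medium with vitamin C, in cells that overexpressed either FLAG as a control or Jmjd3. KLF4 lists came from WT reprogramming cells of day 5 that carried FLAG or JMJD3, and FLAG-JMJD3 lists from WT cells of the same day with OSKM or with a lower dose of Klf4 virus (OSlowKM). The cell type of the reprogramming samples is given by the labels as presumed, and no sorting step was stated for them, so each library can hold cells at several stages. A list gives peak calls and not amounts of the mark, the number of reads behind a list was not used here, and no difference between libraries had a replicate check or a test.

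The H3K27me3 lists held between 3045 and 6954 peaks, each 1000 bp wide. Among 6 fibroblast genes, Thy1 alone had a peak in WT MEFs and none of the 6 had one in KO MEFs. Of 8 genes of other lineages, 7 had a peak in WT MEFs and 6 in KO MEFs, which lacked the one at Pax6. The shares of all protein-coding genes were 14.6% in WT and 10.3% in KO MEFs. The deletion could not be checked from lists of H3K27me3 peaks. Kdm6b had no such peak within 5 kb of a start in any list, of WT or KO cells.

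The authors' peak caller gave each H3K27me3 peak a score on a scale that was not stated. Scores were therefore read only by rank within their own list, where rank 1 is the best score, and a rank is also given as a percentage of the list so that lists of different length can be set side by side. In MEFs all 5 genes had a peak in both genotypes, where 14.6% of all protein-coding genes had one in WT cells and 10.3% in KO cells. The count in KO MEFs fell to 2 with a minimum score of 20 and to 3 with the best-scoring 50% of each list, while that in WT MEFs stayed at 5. With FLAG at day 5 all 5 genes had a peak, against 14.7% of all genes in WT and 13.6% in KO cells. With JMJD3 at day 5 a peak was called at 4 of the 5 genes in WT cells, where the share of all genes was 11.0%, and at all 5 in KO cells, where it was 13.0%. Tdgf1 was the gene without one. At day 10 the WT list with FLAG had peaks at 3 of the 5 genes (12.1% of all genes) and the WT list with JMJD3 also at 3 (8.26%). The KO lists at day 10 had peaks at 4 of the 5 genes with either vector, where 12.8% of all genes had one with FLAG and 11.7% with JMJD3.

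**Figure D1:**
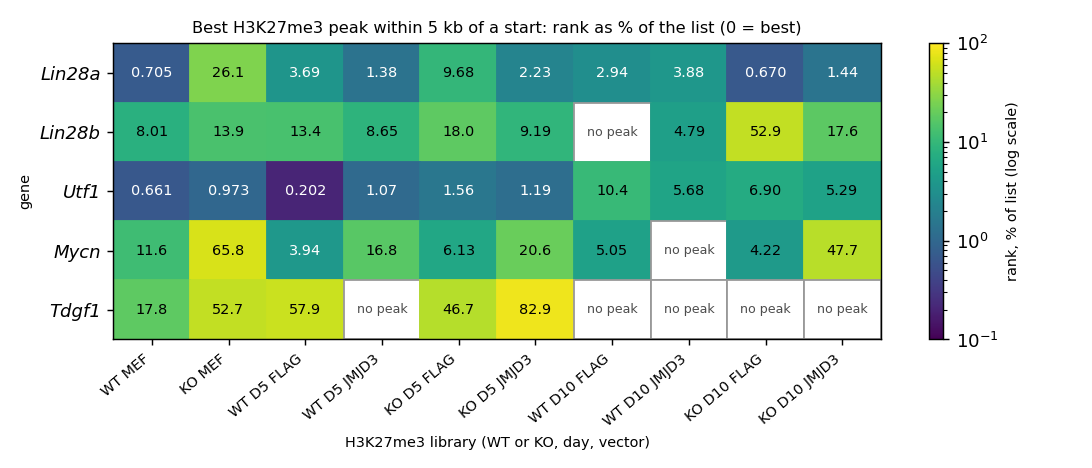
Rank of the best-scored H3K27me3 peak within 5 kb of a start, as a percentage of the list, for each gene (rows) in each of the 10 libraries (columns), with a log colour scale on which dark is a better rank. Lin28a and Utf1 had a peak in every list, as did 4.67% of all protein-coding genes, while Tdgf1 had one in 5 lists and never ranked better than 17.8%.

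Utf1 and Lin28a reached the best ranks of the 5 genes over the 10 lists, 13 and 36, although Mycn or Lin28b ranked better than one of them in 5 lists. Utf1 (ENSMUSG00000047751.9, chr7:139943789-139945112, GRCm38, plus strand) is a gene of 1324 bp, and its peaks were centred 440 to 959 bp after its start, over the coding exons and the intron between them. The scores were 134.74 in WT MEFs (rank 46 of 6954 peaks) and 60.04 in KO MEFs (rank 40 of 4113). At day 5 the WT lists gave 171.26 with FLAG (rank 13 of 6428) and 95.88 with JMJD3 (rank 54 of 5064), and the KO lists gave 80.82 (rank 88 of 5643) and 160.12 (rank 78 of 6539). At day 10 the WT lists gave 27.47 with FLAG (rank 533 of 5131) and 29.86 with JMJD3 (rank 173 of 3045), and the KO lists gave 33.03 (rank 371 of 5376) and 45.61 (rank 258 of 4878). Utf1 thus kept its peak in all 4 pairs of FLAG and JMJD3 lists. With JMJD3 it stood lower in its list only in WT cells at day 5, from 0.202% to 1.07%, and higher in the other 3 pairs. In both genotypes the FLAG lists placed it lower at day 10 than at day 5, at 10.4% after 0.202% for WT and at 6.90% after 1.56% for KO.

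Lin28a (ENSMUSG00000050966.9, chr4:134003330-134018841, GRCm38, minus strand) had its peak 505 to 1719 bp after the start, over its first coding exons and introns with its centre in an exon of the overlapping transcript Gm13061 in 4 lists. It scored 133.01 in WT MEFs (rank 49) and 16.55 in KO MEFs (rank 1075), where the peak also lay farthest from the start. At day 5 the WT lists gave 81.75 with FLAG (rank 237) and 89.93 with JMJD3 (rank 70), and the KO lists 40.37 (rank 546) and 128.77 (rank 146). The gene therefore stood higher with JMJD3 at day 5 in both genotypes, at 1.38% after 3.69% in WT and at 2.23% after 9.68% in KO cells. At day 10 the WT lists gave 45.39 with FLAG (rank 151) and 33.9 with JMJD3 (rank 118), and the KO lists 71.74 (rank 36) and 71.39 (rank 70). The direction at day 10 in WT cells depended on the scale, since the rank number was lower with JMJD3 while its share of the shorter list went from 2.94% to 3.88%. In KO cells at day 10 the peak stood slightly lower with JMJD3, at 1.44% after 0.670%.

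**Figure D2:**
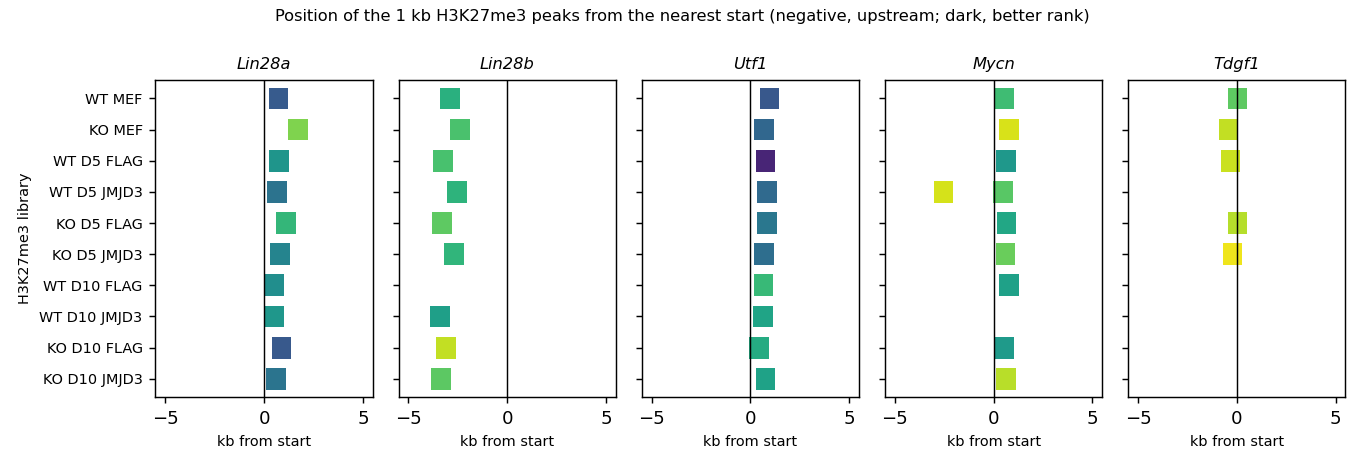
Position of every H3K27me3 peak within 5 kb of a start, in kb from the nearest start of the gene (negative values lie upstream), by library, coloured by rank as in the grid of ranks. The best peaks lay after the start at Lin28a, Utf1 and Mycn, upstream at Lin28b and across the start at Tdgf1. Their centres ranged over 1214 bp at Lin28a, 1035 bp at Lin28b, 519 bp at Utf1, 457 bp at Tdgf1 and 312 bp at Mycn. At Lin28a and Lin28b the best peaks of the libraries therefore did not all overlap.

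Lin28b (ENSMUSG00000063804.8, chr10:45376620-45486395, GRCm38, minus strand) behaved differently in different places. Its basic transcript starts at 45470201, and 2 further transcripts of the full annotation start 15576 and 16194 bp upstream. The peak near the basic start was centred 2387 to 3422 bp upstream of it, inside an intron of the longer transcripts. Near the basic start the gene scored 60.33 in WT MEFs (rank 557) and 23.88 in KO MEFs (rank 570). At day 5 the values were 43.76 with FLAG (rank 861) and 45.05 with JMJD3 (rank 438) in WT cells, and 29.57 (rank 1017) and 70.11 (rank 601) in KO cells. At day 10 the WT list had no peak there with FLAG and a peak of 31.61 (rank 146) with JMJD3, and the KO lists gave 10.19 (rank 2844) and 25.39 (rank 860). In each of the 4 pairs the peak near the basic start thus stood higher with JMJD3 or was present only there.

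Around the upstream starts, 13937 to 17346 bp before the basic start, the best peak of each list went the other way. A peak was called there in all 10 lists, including the WT list with FLAG at day 10. The MEF lists placed it at 64.7% (WT) and 58.3% (KO). At day 5 the WT lists placed it at 21.3% with FLAG and 58.0% with JMJD3, and the KO lists at 32.9% and 44.3%. At day 10 the WT lists placed it at 23.8% and 46.2%, and the KO lists at 18.2% and 50.9%. The best peak around the upstream starts therefore stood lower with JMJD3 in all 4 pairs, but it was the same interval in only 1 of them. The FLAG and JMJD3 peaks of KO cells at day 10 overlapped, while in the other 3 pairs their centres lay 1496 to 1835 bp apart with no overlap. A second JMJD3 peak of KO cells at day 5 did overlap the FLAG peak, at 94.7% of the list. Near the basic start the peaks overlapped in the 3 pairs that had one in both lists, by 265 and 396 bp of 1000 at day 5 (WT and KO) and by 748 bp in KO cells at day 10, so that 1 of these 3 pairs overlapped by at least 50%. A further peak beyond the 3' end of Lin28b, at the start of Bves, which encodes a membrane protein of muscle and epithelia, also stood lower with JMJD3 in all 4 pairs, with overlapping peaks in each (for example 16.3% and 32.5% in WT cells at day 5). These 3 places were told apart after the values were seen. When the starts of all transcripts were used, Lin28b had a peak within 5 kb in all 10 lists and the gain with JMJD3 in WT cells at day 10 was no longer called. Within 2.5 kb of the basic start that gain was not called either, and the kept peaks of day 5 became gains in both genotypes, since only the JMJD3 peaks lay that close.

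**Figure D3:**
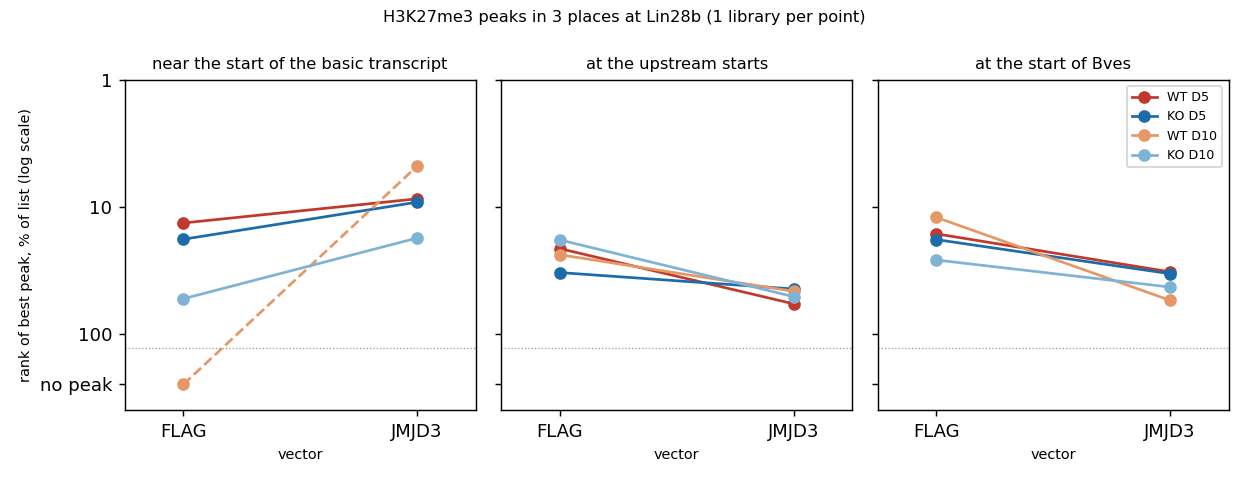
Rank of the best H3K27me3 peak with FLAG and with JMJD3, as a percentage of the list on a log axis with better ranks at the top, near the basic start of Lin28b, at its upstream starts and at the start of Bves, 1 library per point. Lines go up in the first panel and down in the other 2 in all 4 pairs, although at the upstream starts the joined peaks overlapped in 1 pair only, and a dashed line marks a pair with a peak in 1 library only.

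Mycn (ENSMUSG00000037169.15, chr12:12936093-12941914, GRCm38, minus strand) has 2 annotated starts, at 12941914 and 12940616, and its peak was centred on a coding exon, 468 to 780 bp after the downstream start. It scored 49.01 in WT MEFs (rank 808) and 8.72 in KO MEFs (rank 2706). At day 5 the WT lists gave 79.67 with FLAG (rank 253) and 30.47 with JMJD3 (rank 853), and the KO lists gave 49.68 (rank 346) and 37.04 (rank 1347). At day 10 the WT lists gave 37.3 with FLAG (rank 259) and no peak with JMJD3, and the KO lists gave 40.44 (rank 227) and 11.78 (rank 2329). With FLAG the 4 lists placed Mycn between 3.94% and 6.13%, and with JMJD3 it stood at 16.8%, 20.6% and 47.7% or was absent. Mycn was the only one of the 5 genes with a FLAG peak in all 4 pairs that was lower in the list or lost with JMJD3 in each of them. Among the 1913 protein-coding genes with a FLAG peak in all 4 pairs, 385 (20.1%) were ranked worse by rank number or lost in all 4. Among the 511 of these whose FLAG peaks were in the best-scoring 25% of every list, as at Mycn, 114 (22.3%) did so, so the pattern is shared with about 1 gene in 5. The WT list with JMJD3 at day 5 also held a weak second peak, centred 2534 bp upstream of the upstream start (score 9.43, rank 3218), which no other list had.

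Tdgf1 (ENSMUSG00000032494.12, chr9:110939603-110946158, GRCm38, minus strand) had the worst-ranked peak of the 5 genes in 4 of the 5 lists in which it had one, the exception being KO MEFs, where Mycn ranked worse. Its peaks spanned the start, with centres from 420 bp before to 37 bp after it. The scores were 36.26 in WT MEFs (rank 1236) and 10.32 in KO MEFs (rank 2168). At day 5 the WT lists gave 11.08 with FLAG (rank 3720) and no peak with JMJD3, and the KO lists gave 13.47 (rank 2635) and 7.59 (rank 5423). No list of day 10 had a peak within 5 kb of the start, with either vector and in either genotype. Of 1784 genes with a peak in both MEF lists and both FLAG lists of day 5, 68 (3.81%) likewise had none in the 4 lists of day 10, and 16 genes in all had the presence and absence of Tdgf1 across the 10 lists. The lowest score in any list was 6.56, so the peak of the KO library with JMJD3 lay close to the limit of the calls, and its presence in KO and absence in WT cells at day 5 rests on a score of 7.59. A minimum score of 20 left Tdgf1 without a peak with either vector at day 5, and the loss in WT cells was then no longer counted. The nearest peak of day 10 was a weak one of the KO list with JMJD3, 7214 bp from the start (score 6.73, rank 4703). The peaks at the start also lay within 5 kb of a start of Lrrc2, the neighbouring gene. The bases just before the start, which lay inside all 5 peaks, are shown because they are common to the peaks that were kept and the one that was lost.

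Tdgf1 upstream of the start, chr9:110946159-110946408, minus strand: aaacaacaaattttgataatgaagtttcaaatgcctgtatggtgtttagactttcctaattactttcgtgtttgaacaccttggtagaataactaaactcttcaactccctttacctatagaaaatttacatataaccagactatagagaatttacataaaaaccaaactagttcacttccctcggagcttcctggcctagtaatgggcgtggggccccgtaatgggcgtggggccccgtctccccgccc

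That stretch was 250 bases long with 42.0% G and C and did not hold the KLF core CACCC or its reverse complement, which 52.0% of 32851 RefSeq promoters of GRCm38 held in the same stretch. No match says only that these letters are not in this window.

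The 4 pairs can be set against all genes. In WT cells at day 5 the 5 genes kept 4 peaks and lost 1, Tdgf1, while 31.8% of all genes with a FLAG peak had none with JMJD3. In KO cells at day 5 they kept all 5, where 20.5% of all genes lost theirs. With the best-scoring 50% of each list, or all lists reduced to 3045 peaks, Tdgf1 was instead lost in KO cells at day 5 and no loss was counted in WT cells. In WT cells at day 10 the 5 genes kept 2 (Lin28a and Utf1), lost 1 (Mycn), gained 1 (Lin28b, with the limit given above) and had none at Tdgf1, against a loss at 41.3% of all genes. This share over all genes was 66.2% with a minimum score of 20 and 31.2% with all lists reduced to 3045 peaks. In KO cells at day 10 the 5 genes kept 4 and lost none, against 25.1%. With a minimum score of 20, Mycn was counted as lost and Lin28b as gained in that pair. Losses among well-scored peaks were less frequent. Of genes whose FLAG peak was in the best-scoring 25% of its list, the WT lists showed a loss at 5.70% on day 5 and 17.0% on day 10. The KO lists showed one at 2.14% and 5.19%. The peak that Mycn lost in WT cells at day 10 was of this kind, at 5.05% of its list, whereas the one that Tdgf1 lost at day 5 stood at 57.9%.

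Gains were rare. Of genes without a FLAG peak, those with one under JMJD3 made up 1.12% on day 5 and 1.30% on day 10 for WT, and 2.47% and 2.42% for KO. Kept peaks were compared by rank number, for which a shorter JMJD3 list makes a worse rank less likely. Of kept peaks, 51.8% were ranked worse with JMJD3 in WT cells at day 5, where 2 of the 4 kept by the 5 genes were (Utf1 and Mycn). In KO cells at day 5 the share was 52.6%, with 2 of 5 (Mycn and Tdgf1). At day 10 it was 43.1% in WT cells, with 0 of 2, and 50.0% in KO cells, with 2 of 4 (Lin28a and Mycn). On the percentage scale Lin28a was worse in WT cells at day 10, which makes 1 of 2 there. These 5 genes are too few for the counts to be read as different from the shares over all genes.

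**Figure D4:**
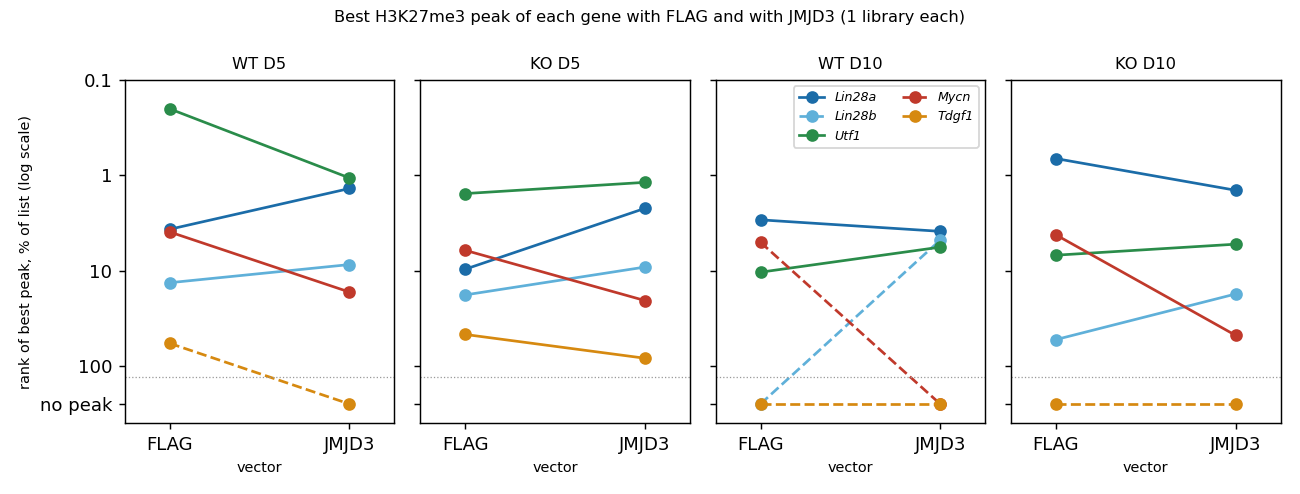
Rank of the best H3K27me3 peak of each gene with FLAG and with JMJD3, as a percentage of the list on a log axis with better ranks at the top, for WT and KO cells at day 5 and day 10, 1 library per point. The Mycn line goes down in all 4 panels, the Lin28b line goes up in all 4, and dashed lines join points of which at least 1 had no peak.

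The second part of the comparison asked where KLF4 and JMJD3 were found near the 5 genes at day 5. In the KLF4 lists, 2 of the 5 genes had a peak inside 50 kb with FLAG (59.5% of all genes) and 3 with JMJD3 (67.1%). In the JMJD3 lists, 2 of the 5 had a position that close with OSKM (55.5%) and 1 with OSlowKM (14.1%). Lin28b and Tdgf1 had no site in any of the 4 lists. The nearest sites beyond 50 kb were a JMJD3 position 91610 bp from Lin28b, near the start of Hace1, and a KLF4 peak 59213 bp from Tdgf1, near the start of Als2cl. Tdgf1 therefore lost its peak in WT cells at day 5 with no listed JMJD3 or KLF4 site within this distance.

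Mycn was the only one of the 5 genes with a KLF4 peak within 1 kb of a start. With JMJD3 a KLF4 peak of 278 bp was centred 646 bp upstream of the upstream start, and the KLF4 list with FLAG had none within 50 kb. JMJD3 with OSKM was placed 99 bp and 1606 bp upstream of the same start and also 50496 bp downstream of the other start, and OSlowKM had no position within 50 kb. The positions at 99 and 1606 bp lay 547 and 960 bp from the KLF4 peak, so they were not merged with it at the 400 bp used to call sites the same, though both were at 1000 bp. In WT cells at day 5 the H3K27me3 peak with FLAG lay 2075 bp from the centre of the KLF4 peak, 1528 bp from the nearer JMJD3 position and 3035 bp from the farther one. The weak second H3K27me3 peak with JMJD3 lay 429 bp from the JMJD3 position at 1606 bp. These sequences are printed because all of them lie upstream of Mycn, whose H3K27me3 peak stood lower or was lost with JMJD3, and capitals mark CACCC or its reverse complement GGGTG.

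Mycn KLF4 peak with JMJD3, chr12:12942422-12942699, plus strand: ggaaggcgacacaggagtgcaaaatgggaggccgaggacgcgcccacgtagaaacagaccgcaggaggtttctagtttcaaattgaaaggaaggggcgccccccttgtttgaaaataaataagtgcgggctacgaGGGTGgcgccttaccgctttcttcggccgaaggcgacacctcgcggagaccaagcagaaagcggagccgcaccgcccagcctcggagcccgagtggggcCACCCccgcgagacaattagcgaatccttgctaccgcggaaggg
Mycn JMJD3 position at 99 bp, chr12:12941913-12942112, plus strand: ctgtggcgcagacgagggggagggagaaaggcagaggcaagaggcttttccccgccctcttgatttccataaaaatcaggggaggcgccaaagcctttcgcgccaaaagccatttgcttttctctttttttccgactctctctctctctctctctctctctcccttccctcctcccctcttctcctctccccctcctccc
Mycn JMJD3 position at 1606 bp, chr12:12943420-12943619, plus strand: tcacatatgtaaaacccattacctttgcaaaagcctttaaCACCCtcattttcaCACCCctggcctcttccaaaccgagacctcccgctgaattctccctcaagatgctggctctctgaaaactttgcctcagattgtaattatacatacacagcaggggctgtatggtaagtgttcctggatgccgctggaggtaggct

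The KLF4 peak upstream of Mycn held 2 such matches in its 278 bp, 1 of them in the central 200 bp, where 66.1% of the windows of its list had at least 1. The window of the position at 1606 bp held 2 matches and that at 99 bp held none, against 51.9% of the windows of all JMJD3 positions with OSKM. The longer KLF letters CCNCACCC were found in none of these 3 windows, nor the octamer letters ATGCNAAT, which bind OCT4.

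At Lin28a the sites fell into a proximal and a distal set. JMJD3 was placed 1946 bp upstream of the start with OSKM and 2005 bp upstream with OSlowKM, 59 bp apart, which made it the only JMJD3 site of the 5 genes listed at both levels of KLF4. Neither KLF4 list had a peak there. Beyond the other end of the gene, KLF4 with JMJD3 (209 bp wide) lay on an exon of Hmgn2, 272 bp from a second JMJD3 position with OSKM in the first intron of Hmgn2, 148 bp upstream of its nearest annotated start. KLF4 with FLAG was instead found 40 bp upstream of the start of Dhdds, in a peak of 174 bp. Hmgn2 encodes a nucleosome-binding protein and Dhdds an enzyme of dolichol synthesis, and their starts are nearer to these sites than that of Lin28a is. The upstream JMJD3 site is printed because it was listed at both doses of Klf4 virus, with ATGCAAA or its reverse complement TTTGCAT in capitals, a shorter form of the octamer chosen after the sequence was seen.

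Lin28a JMJD3 position with OSKM, chr4:134020687-134020886, plus strand: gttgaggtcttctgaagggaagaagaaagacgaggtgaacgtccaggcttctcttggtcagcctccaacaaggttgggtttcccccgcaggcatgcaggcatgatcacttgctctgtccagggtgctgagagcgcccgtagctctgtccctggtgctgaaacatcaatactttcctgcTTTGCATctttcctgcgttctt

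Its window of 200 bp held 1 match to ATGCAAA, and the overlapping window with OSlowKM held the same match. Over all windows these letters were found in 9.48% with OSKM and 11.0% with OSlowKM. These shares cannot weigh the match, because the letters were taken from this sequence. The window with OSKM also held 1 match each to CACCC and to the SOX letters CNTTGT. It held none to CCNCACCC, ATGCNAAT or the AP-1 letters TGANTCA. This site lay 2186 bp from the H3K27me3 peak of WT cells with FLAG and 2099 bp from that with JMJD3 at day 5, and that peak stood higher with JMJD3.

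At Utf1 the KLF4 lists shared a site, with midpoints 74 bp apart, 29424 bp upstream of the start with FLAG and 29498 bp upstream with JMJD3. It lay on an exon of Kndc1, a gene of neuronal signalling, 236 to 310 bp from an H3K27me3 peak of WT cells with FLAG at day 5, while the nearest such peak with JMJD3 was 9361 to 9435 bp away. No JMJD3 position lay within 50 kb of Utf1. The central 200 bp with JMJD3 were the only ones of all 11 sites with CCNCACCC, found in 32.1% of the windows of that list. In windows of 400 bp the FLAG peak of the same site also held it, which makes 2 of the 11. Both lists had the AP-1 letters TGANTCA there, found in 5.46% of windows with FLAG and 5.87% with JMJD3. All of the KLF4 peaks of the 5 genes except that of Mycn were narrower than the lower quartile of their lists, which was 214 bp with FLAG and 229 bp with JMJD3.

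**Figure D5:**
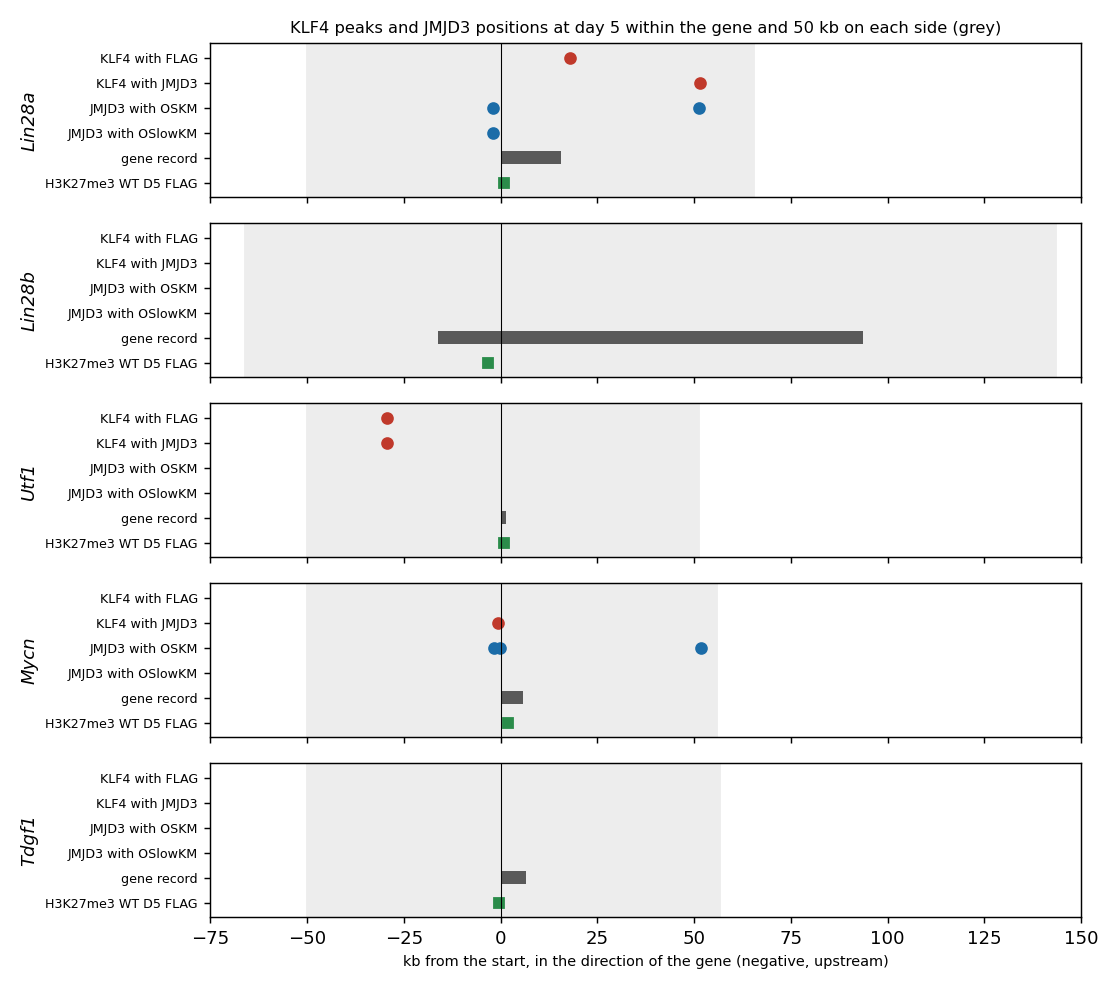
KLF4 peaks (red) and JMJD3 positions (blue) at day 5 within each gene and 50 kb on each side (grey area), in kb from the most upstream basic start in the direction of the gene, with the gene record (dark bar) and the H3K27me3 peak of WT cells with FLAG (green). Lin28a and Mycn had JMJD3 near the start, Utf1 had a KLF4 site about 29 kb upstream, and Lin28b and Tdgf1 had no site.

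What the genes had in common apart from the rule was limited. Over 1000 bp around the most upstream basic start the CpG content, as observed over expected, was 0.797 at Utf1, 0.673 at Mycn, 0.601 at Tdgf1, 0.437 at Lin28b and 0.373 at Lin28a, where the median of all genes was 0.571 with quartiles of 0.223 and 0.775. Lin28a and Utf1, the genes with a peak in all 10 lists, thus had the lowest and the highest value of the 5. A peak in all 10 lists was found at 1026 genes, which is 4.67% of all and 20.8% of the 4925 with a peak in any list. In MEFs the KO list was shorter than the WT list, so an equal rank is a worse percentage there. Utf1 and Lin28b had similar ranks in both lists (46 and 40, 557 and 570), whereas Lin28a, Mycn and Tdgf1 had worse ranks in the KO list on both scales, at 26.1%, 65.8% and 52.7% of it. The peaks can be read as single places in the genome, as 86.5% to 100% of the 32-base words in each H3K27me3 peak occurred once on the reference chromosomes, although processed pseudogenes of Tdgf1 are annotated elsewhere.

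Genes of the same pathways were looked up in lists chosen with earlier results of these data known. Of 11 genes that work with LIN28 and let-7, 2 had a peak in WT MEFs, where 14.6% of all genes had one. None of the 11 lost or gained a peak in any of the 4 pairs, but at most 2 had a FLAG peak to lose. Of 10 genes of the MYC network, Mycl, the third MYC family gene, lost its peak in WT cells at day 5 (rank 6010 with FLAG) and in KO cells at day 10 (rank 1466) and kept it in WT cells at day 10. Myc gained a peak in WT cells at day 5 and in KO cells at day 10, at ranks 3784 and 1817, and it is also carried by the OSKM viruses. The remaining 8, MAX and its partners among them, had no peak in any list, and at most 2 of the 10 had a FLAG peak in a pair, where 20.5% to 41.3% of all genes lost theirs.

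Losses were also counted for 15 genes of NODAL signalling, in which TDGF1 acts. In WT cells 2 of 6 genes with a FLAG peak lost it at day 5 and 3 of 4 at day 10, and 2 of 6 and 2 of 5 did so among KO lists, where the share of all genes was 31.8%, 41.3%, 20.5% and 25.1%. Groups of 4 to 6 genes are too small to be read as different from these shares. Lefty1, an inhibitor of NODAL, lost its peak at day 5 in both genotypes (ranks 3242 and 2899 with FLAG) and at day 10 in KO cells (rank 3515). Acvr1c, a receptor for NODAL, lost it at day 5 in both genotypes (ranks 4405 and 2407) and gained one in KO cells at day 10. Nodal itself, the ligand, kept its peak at day 5 in both genotypes, going from rank 295 to 2108 for WT and from 468 to 1417 for KO, and lost it in WT cells at day 10 (rank 687 with FLAG). In KO cells at day 10 it went from rank 653 to rank 2271, so Nodal, like Mycn, stood lower or was lost with JMJD3 in all 4 pairs. By rank number, so did 20.1% of the 1913 protein-coding genes with a FLAG peak in all 4 pairs. Of the genes in the other lists, Igf2bp1, a let-7 target that encodes an RNA-binding protein, and Fgf4, a growth factor gene of embryonic cells, also stood lower in all 4 pairs, and both were picked after their values were seen. Cfc1, the other co-receptor of this family, and Foxh1, a transcription factor of the pathway, lost theirs in WT cells at day 10 from ranks 4136 and 2108. Lefty2, also an inhibitor, gained a peak in KO cells at day 5 (rank 4804) and lost one in KO cells at day 10 (rank 4014).

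Of 12 other genes of undifferentiated cells, 2 of 4 with a FLAG peak lost it in WT cells at day 5, 1 of 3 in KO cells at day 5, 1 of 3 in WT cells at day 10 and 0 of 2 in KO cells at day 10, against 31.8%, 20.5%, 41.3% and 25.1% of all genes. Dnmt3l, a cofactor of DNA methyltransferases, lost its peak in 3 pairs (ranks 4174, 2842 and 2078 with FLAG), and Nanog, a core pluripotency factor, lost it in WT cells at day 5 (rank 5302). Tfcp2l1, a transcription factor of naive cells, gained a peak in KO cells at day 5 (rank 4502). The 7 genes of other lineages with a peak at day 5 and day 10 kept it in all 4 pairs. Most of their FLAG peaks ranked in the best-scoring 25% of the lists, where 2.14% to 17.0% of all genes lost theirs, and 7 genes are too few to be read as different from that. Among the 6 fibroblast genes, Thy1 lost its peak in WT cells at day 5 (rank 2486) and Col1a1 and Postn gained one in KO cells at day 10 (ranks 3096 and 4693). The part of fibroblasts in the results was not tested.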

How the data were processed

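Peak lists of 14 libraries were used, with groups from the sample labels. The authors mapped reads to mm10 with Bowtie2 (version 2.2.0 per the submitters' processing notes). Each library had its own peak calls, made by DFilter where the mark was H3K27me3 and by MACS2 where the target was KLF4 or JMJD3. For H3K27me3 alone, Drosophila cells served as a spike-in and the authors scaled mouse reads by the Drosophila reads. Whether the peaks were called on scaled reads was not given in the sources used here. The viruses were lentiviral in the labels and retroviral in the protocols. The deposited H3K27me3 lists hold intervals of 1000 bp with a score from 6.56 to 200, whose scale was not stated. The deposited KLF4 lists hold intervals and the JMJD3 lists 1 bp positions, without a score.

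Coordinates were compared with GRCm38, the same build as mm10, and 0 peaks lay beyond a chromosome's end. Gene starts came from the basic set of GENCODE M21 and promoters from RefSeq. A peak belonged to a gene when at least 1 bp lay within 5 kb of a start, or, for KLF4 and JMJD3, within 50 kb of the gene. The limit did not fall among the peaks: the farthest of 44 peaks inside lay 2923 bp from a start (Lin28b, score 31.61), and of 9 others within 10 kb the nearest lay 5719 bp away (Lin28a, score 6.95). A peak counted as lost when the gene had one in the FLAG list only, and as gained when it had one in the JMJD3 list only. Sites within 400 bp were called the same, the distance used in the study. Letters were matched on both strands in 200 bp windows, where CACCC lies within CCNCACCC and a match to ATGCAAA can overlap one to ATGCNAAT. As a check of the code, simulated peaks were placed within 5 kb of a start of 400 genes among 21951, and 400 were recovered. The placing fixed this outcome, so it checks how peaks were assigned to genes. It says nothing about the comparison of FLAG with JMJD3. The tools were bedtools 2.31.1, samtools 1.23.1, pysam 0.24.0, numpy 2.4.6 and Python 3.11.15. The 5 genes, the pathway lists and the rules were chosen with earlier results of these data known. The named genes were the 5 genes, pathway genes that lost or gained a peak, marker genes, genes holding or nearest a binding site, and Kdm6b. Bves and the places at Lin28b were named after their values were seen, and the letters CACCC and ATGCAAA and the starts of all transcripts were added then. Alternatives changed the distance, the starts, the score minimum, the list length, the overlap and the merging distance.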

Additional observations from a re-analysis of the deposited data

Results flagged for a closer look

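At 2 genes the rank moved with JMJD3 in opposite directions between genotypes or days, on both the rank and the percentage scale. These differences were not tested, since each value compares 1 library with 1 library, and a negative number means a better rank with JMJD3. For Utf1 at day 5 the rank with JMJD3 minus the rank with FLAG was 41 in WT and -10 in KO cells. In WT cells the same difference for Utf1 was 41 at day 5 and -360 at day 10. For Lin28a in KO cells it was -400 at day 5 and 34 at day 10.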

How the results depend on the processing

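Of 152 recomputed values, 124 stayed within the range set for no change and 28 moved. For counts the range was a ratio to the main value, so 5 to 4 or 3 to 2 genes passed as no change and 1 to 0 did not. A share over all genes passed when it lay in the confidence interval of the main share. With so few genes the 124 says little about single calls. Neither the distance from a start (2.5 or 10 kb) nor the choice of starts moved a count of genes past that range. Single calls did change: at 2.5 kb Lin28b was counted in 4 of the 10 lists, so that its kept peaks at day 5 became gains in WT and KO cells, its kept peak in KO cells at day 10 was not counted and its gain in WT cells at day 10 ended. The gain ended with the starts of all transcripts too. At 10 kb Tdgf1 had a peak in KO cells at day 10 with JMJD3 and none with FLAG, which made a gain. With a score of at least 20, the genes with a peak in KO MEFs were 2, the losses were 0 in WT cells at day 5 and 1 (Mycn) in KO cells at day 10, and the losses over all genes were 42.7% and 17.5% (WT and KO, day 5) and 66.2% and 32.1% (WT and KO, day 10). That setting takes a score of 20 as equal in all lists, although the scale was not stated. With the best-scoring 50% of each list, KO MEFs had 3 of the genes, the day 5 losses were 0 for WT and 1 (Tdgf1) for KO, and those over all genes were 18.7% in KO cells at day 5 and 47.4% and 27.4% at day 10. With all lists reduced to 3045 peaks, the day 5 losses were again 0 for WT and 1 (Tdgf1) for KO, and over all genes 25.7% and 22.3% at day 5 and 31.2% in WT cells at day 10. The loss at Mycn in WT cells at day 10 was called in every setting, and the loss at Tdgf1 in WT cells at day 5 only where weak peaks were counted. Requiring 50% overlap gave 2 FLAG peaks of the genes without a counterpart for WT and 1 for KO on day 5. A KLF4 peak within 10 kb was found at 1 gene with FLAG (Lin28a) and at 1 other with JMJD3 (Mycn). Within 50 kb it was found at 0 genes in both lists when only the wider 50% of each list was kept. In windows of 400 bp the longer KLF letters were found at 2 sites in place of 1. In windows of 200 bp the shorter letters CACCC were found at 6 sites in place of 1, and ATGCAAA at 2 in place of 0. At 1000 bp, 5 pairs of sites coincided in place of 3. With 1 library per group there were no replicate numbers to pair by. A comparison of the vectors with the 4 pairs of genotype and day as blocks was not run, and an exact permutation over 4 pairs cannot give a two-sided p below 0.125. Read depth limits which weak peaks were called and was not used here.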
